A study of Homo sapiens with 6 samples.

Results

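Angiogenic ligands and neuropilins were followed in MDA-MB-231, an established human line of triple-negative breast cancer with mesenchymal features. The set held 10 of the 19775 genes with a probe set of their own: the VEGF family ligands VEGFA, VEGFB, VEGFC and PGF, the neuropilins NRP1 and NRP2, the angiopoietin ANGPT1, the angiogenesis inhibitor THBS1, and the growth factors PDGFC and FGF5. Their members were all probe sets (groups of short probes for a transcript) whose only gene symbol in the platform annotation was one of these genes, which gave 38 of 54675 probe sets. Cells were treated for 48 h with 50 µM TCI04, for which only this code name is given (3 arrays), or for 48 h with phosphate-buffered saline (PBS) as the control (3 arrays), and their total RNA was hybridised to Affymetrix arrays. The labels give 1 cell line and leave unsaid whether replicate arrays stem from different cultures; the p-values therefore cover array-to-array spread only, which may be technical.

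VEGF family ligands are secreted dimers that bind receptor tyrosine kinases on endothelial cells and drive the growth of blood and lymphatic vessels. Neuropilins are membrane co-receptors that bind VEGF ligands and class 3 semaphorins, pair with VEGF receptors or plexins, and are also found on many tumour cells. Tumour cells supply many of these ligands to the vessels around them, and thrombospondin 1 counters them through receptors such as CD36 and CD47.

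Values were MAS5 signals, which condense a probe set's probes into 1 linear value, and the mean after trimming 2% from each end was the same on all arrays (500.1). The median signal was 58.9 to 59.8 on the TCI04 arrays and 64.0 to 74.3 on the PBS arrays. Arrays of 1 group had Spearman correlations of 0.932 to 0.938, and arrays of different groups 0.931 to 0.940. By the 3' to 5' signal ratio of the ACTB control, TCI04 replicate 3 stood apart at 3.33. The other TCI04 arrays were at 1.71 and 1.70, and the PBS arrays at 1.64 to 1.72. An exact two-sided permutation test compared the group means, not single arrays (p = 0.3, the smallest possible with 3 against 3 arrays being 0.1). The ratio of the GAPDH control was also highest on TCI04 replicate 3, at 1.21, against 0.973 to 1.08 on the other arrays. All 7 markers of the cell line, among them VIM and CD44, were above the filter on dim probe sets, while 2 of the 4 genes listed as low in this line, CDH1 and PGR, were below it. The other two were above it. EPCAM measured 340.2 to 454 with TCI04 and 393 to 423 with PBS, and ESR1, the oestrogen receptor, measured 18.5, 28.5 and 39.7 with TCI04, against 94.3, 20.9 and 35.8 with PBS, in the brightest of its 9 probe sets.

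None of the 10 genes had a probe set that changed past the adjusted threshold of 0.05. Of the 38 probe sets, 32 passed the filter (a mean signal of about 33.9) and were tested; 0 were called higher and 0 lower (limma, Benjamini-Hochberg adjustment over 32746 probe sets), against 0% and 0.00305% of all probe sets tested. At an unadjusted p under 0.05, 3 of the 32 stood out, VEGFA and NRP1 toward higher and a dim NRP1 probe set toward lower values. This was 9.38% of the members (6.25% higher and 3.125% lower), against 7.08% of all probe sets tested (2.21% higher and 4.88% lower). The TCI04 and PBS arrays did not overlap for 4 of the 32 probe sets (12.5%), against 13.5% of all tested. TCI04 was the higher group in 2 of them and the lower in 2, against 5.35% and 8.19% of all tested. At the reported scaling the shares over both directions together were near those of the whole array. The share at an unadjusted p under 0.05 toward higher values was above that of the whole array, but rests on 2 probe sets. After quantile normalization, 4 of the 32 members (12.5%) had an unadjusted p under 0.05 toward higher values, against 3.06% of all tested, and with arrays centred on their medians 6 of 32 (18.8%), against 14.0%, with no member passing the adjusted threshold under either.

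The means of 12 member probe sets were higher and of 20 lower with TCI04, with a median log2 fold change of -0.047; over all tested probe sets 43.8% were higher and the median was -0.027. These splits moved with the scaling of the arrays. Quantile normalization gave 15 higher and 17 lower (46.9% higher, against 52.6% of all tested). Centring each array on its median gave 21 higher and 11 lower (65.6% higher, against 71.5%). The median centring moved the median of all tested probe sets by 0.16 (log2). Leaving out 1 array moved the log2 fold change by over 1.5 times, or turned it, for 28 of the 32 member probe sets. That bound is relative, so a small log2 fold change, such as -0.0033 for FGF5 210310_s_at, passes it easily. The share over all tested probe sets was not computed. The exceptions were VEGFA 210512_s_at, NRP1 212298_at and 210615_at, and THBS1 215775_at. Of these, 210615_at was tested in only 3 of the 6 fits that left out an array. Relative to the median of all tested probe sets, the bright VEGFA and NRP1 probe sets were at 0.27 and 0.34 as reported and at 0.21 and 0.27 after quantile normalization.

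**Figure D1:**
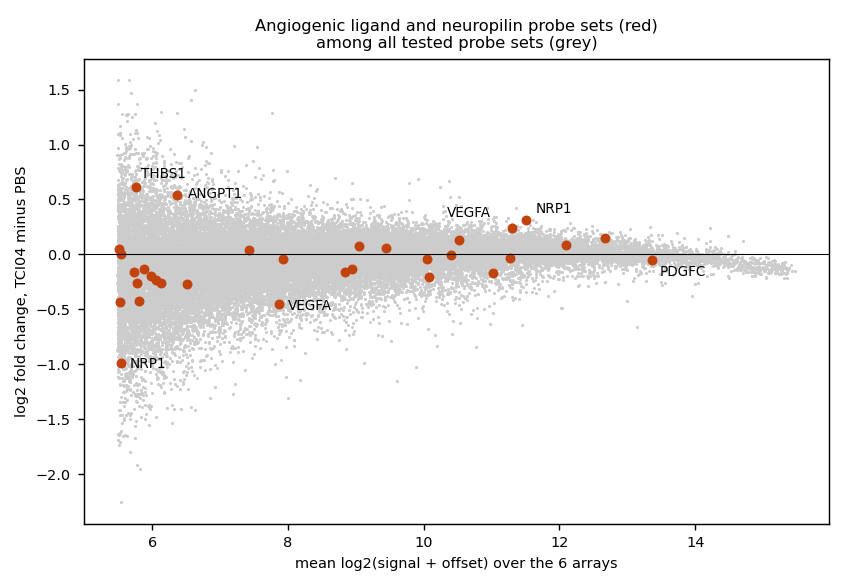
Log2 fold change (TCI04 minus PBS, vertical axis) against the mean log2(signal + offset) over the 6 arrays (horizontal axis) for all 32746 tested probe sets in grey and the 32 member probe sets in red. The members lie within the grey cloud, and the labelled VEGFA and NRP1 points at 0.24 and 0.31 sit near the upper edge of the probe sets of their own signal.

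VEGFA, the main ligand that drives blood vessel growth, gave the smallest p among the members, and its 4 probe sets did not move together. Its brightest probe set, 210512_s_at, measured 2703, 2579 and 2894 on the TCI04 arrays, against 2283, 2176 and 2451 on the PBS arrays. All TCI04 arrays lay above all PBS arrays, the lowest TCI04 value being 2579 and the highest PBS value 2451. The means were 2725 ± 159 with TCI04 and 2303 ± 139 with PBS (SD, n = 3 each), a difference of 18.3%. This log2 fold change of 0.24 (SE 0.074) failed the correction (limma, adjusted p = 0.697). It ranked 303 by p among 32746 probe sets, and its 95% interval ran from 1.06-fold to 1.32-fold. Without TCI04 replicate 3, the array with the high ACTB ratio, the log2 fold change was 0.20.

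A further VEGFA probe set, 210513_s_at, pointed the other way. It measured 181, 261 and 139.8 with TCI04, against 295, 225 and 269.5 with PBS, so that TCI04 replicate 2 lay within the PBS range and the other TCI04 arrays below it. The log2 fold change was -0.45 (limma, SE 0.21, adjusted p = 0.697), and -0.25 without TCI04 replicate 3, where the lowest value had been. The remaining VEGFA probe sets, 212171_x_at and 211527_x_at, had log2 fold changes of 0.058 and 0.044 with overlapping arrays; the ending _x_at marks probes that can also bind other transcripts. The mean over the VEGFA probe sets gave a log2 fold change of -0.028, so the gene's direction depended on the probe set taken. The 95% intervals of 210512_s_at (0.078 to 0.40) and 210513_s_at (-0.93 to 0.020) did not overlap on the log2 scale, and the difference between them was not tested.

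**Figure D2:**
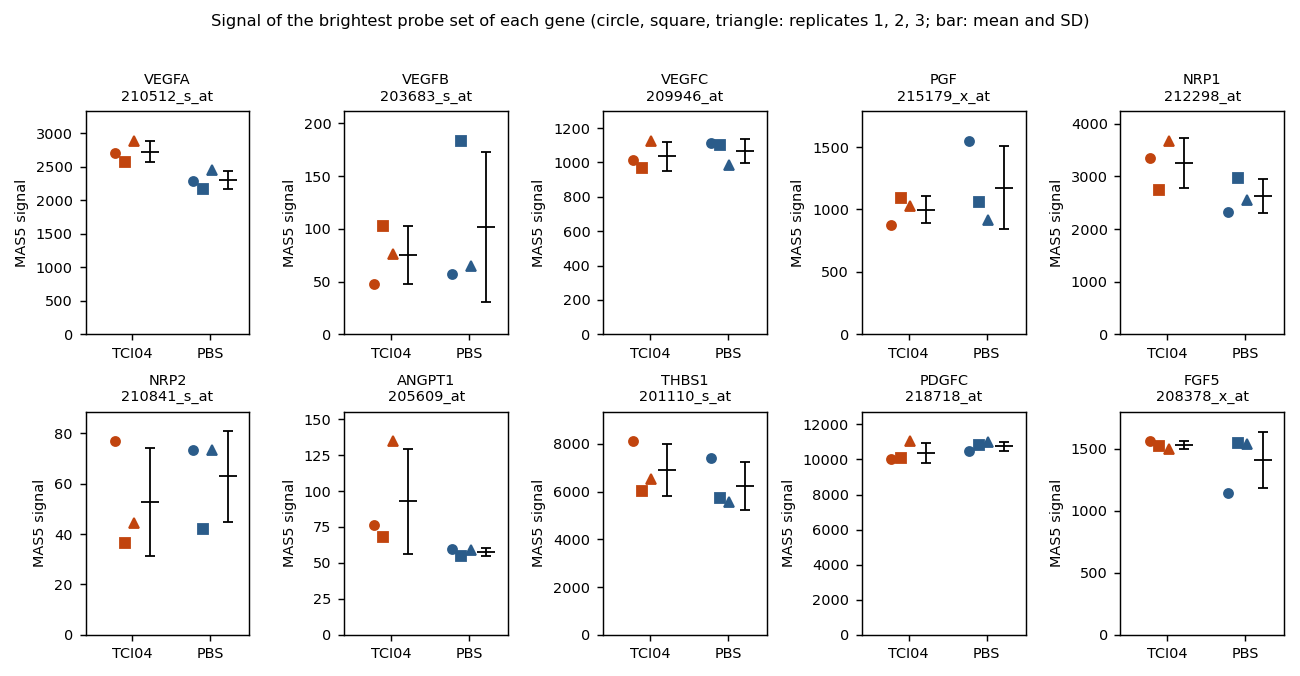
MAS5 signal (vertical axis, linear from 0, a scale of its own in each panel) of the brightest probe set of each gene on the 3 TCI04 arrays (left, red) and the 3 PBS arrays (right, blue), with bars for the mean and SD. VEGFA and ANGPT1 have all TCI04 arrays above all PBS arrays, and the groups overlap in the other 8 panels.

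VEGFC, a ligand of lymphatic vessel growth, was measured by 1 probe set, 209946_at. Its signal was 1015, 965 and 1127 with TCI04, against 1113, 1099 and 987 with PBS, and the groups overlapped across their ranges. The log2 fold change of -0.042 (limma, SE 0.091, adjusted p = 0.922) had an interval from 0.845-fold to 1.12-fold.

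PGF, placental growth factor, which binds the receptor FLT1, had lower means with TCI04 in both of its probe sets. In 215179_x_at the signal was 878, 1094 and 1028 with TCI04, against 1552, 1061 and 915 with PBS. The PBS spread came from replicate 1, and without that array the log2 fold change of -0.20 turned to 0.015. The other PGF probe set, 209652_s_at, gave 424 ± 63.4 with TCI04 and 472 ± 48.1 with PBS, a log2 fold change of -0.16 that became 0.0029 with arrays centred on their medians. Neither passed (limma, adjusted p = 0.782 and 0.792).

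VEGFB, a family member linked to fatty acid uptake by vessels and to cell survival, was dim and variable. Its probe set, 203683_s_at, measured 47.3, 103 and 76.4 with TCI04, against 56.7, 184 and 65.2 with PBS. In both groups replicate 2 was the highest array, and the coefficient of variation was 36.7% with TCI04 and 69.7% with PBS. The log2 fold change of -0.27 (limma, SE 0.41, adjusted p = 0.885) turned to 0.21 without PBS replicate 2, and its interval, from 0.445-fold to 1.55-fold, leaves the direction unresolved.

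NRP1, which binds VEGFA and semaphorin 3A, had its brightest probe set higher on average with TCI04. Probe set 212298_at measured 3347, 2749 and 3681 with TCI04, against 2329, 2969 and 2560.3 with PBS. TCI04 replicates 1 and 3 lay above all PBS arrays, while TCI04 replicate 2 lay below PBS replicate 2. The means were 3259 ± 472 with TCI04 and 2619 ± 324 with PBS, a log2 fold change of 0.31 with a standard error of 0.11 that failed the correction (limma, adjusted p = 0.697). Without TCI04 replicate 3 it was 0.22. The interval ran from 1.04-fold to 1.48-fold.

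The other NRP1 probe sets did not share that shift. Probe set 210510_s_at measured 475, 623 and 500 with TCI04, against 564, 541 and 414 with PBS, a log2 fold change of 0.075 that turned to -0.061 without PBS replicate 3. The dim 210615_at had 38.0, 12.5 and 19.9 with TCI04, against 74.2, 58.2 and 36.1 with PBS. Only TCI04 replicate 1, at 38.0, overlapped the PBS range, and its log2 fold change of -0.99 was the largest in size among the tested member probe sets at the reported offset (limma, adjusted p = 0.697). It was -0.46 with the offset at the table median and -1.30 with an offset of 1, and passed the filter in 3 of the 6 fits that left out an array. Its TCI04 mean of 23.5 was under the filter level of 33.9, so it was tested because of its PBS signal, averaging 56.2. The last NRP1 probe set, 1561365_at, gave -0.14. The mean of the NRP1 probe sets had a log2 fold change of -0.18, opposite in sign to the brightest one. That mean includes 210615_at, tested because of its PBS signal, so its sign is no separate evidence on the direction of NRP1.

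NRP2, the neuropilin that binds VEGFC and semaphorin 3F, had the most probe sets, 11, and all were dim. Its brightest, 210841_s_at, measured 77.0, 36.4 and 44.6 with TCI04, against 73.3, 42.1 and 73.3 with PBS, with overlapping arrays. The log2 fold change of 210841_s_at was -0.23 (limma, SE 0.34, adjusted p = 0.876). The 4 NRP2 probe sets below the filter ranged from 3.004 to 69.2 with TCI04 and from 2.25 to 84.4 with PBS. Of the 7 tested, 2 had higher and 5 lower means, with log2 fold changes from -0.42 to 0.047. The tested 229225_at (mean signal 34.6) lay just inside the filter and 219367_s_at (31.1) just outside it. None of the 7 intervals lay within 1.5-fold, so these probe sets bound the NRP2 shift less tightly than those of VEGFC, PDGFC or FGF5.

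ANGPT1, the ligand that activates the endothelial receptor TEK and steadies vessels, had 2 tested probe sets, each with groups that did not overlap, in opposite directions. Probe set 205609_at measured 76.0, 67.7 and 135 with TCI04, against 59.6, 54.5 and 58.8 with PBS. The highest value came from TCI04 replicate 3, and without that array the log2 fold change of 0.54 (limma, SE 0.29, adjusted p = 0.702) was 0.27. Probe set 205608_s_at measured 56.7, 45.6 and 57.2 with TCI04, against 64.7, 63.7 and 68.0 with PBS, a log2 fold change of -0.26 (limma, SE 0.26, adjusted p = 0.817). The third probe set, 1552939_at, was below the filter at 0.392 to 16.0 with TCI04 and 0.453 to 5.52 with PBS.

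**Figure D3:**
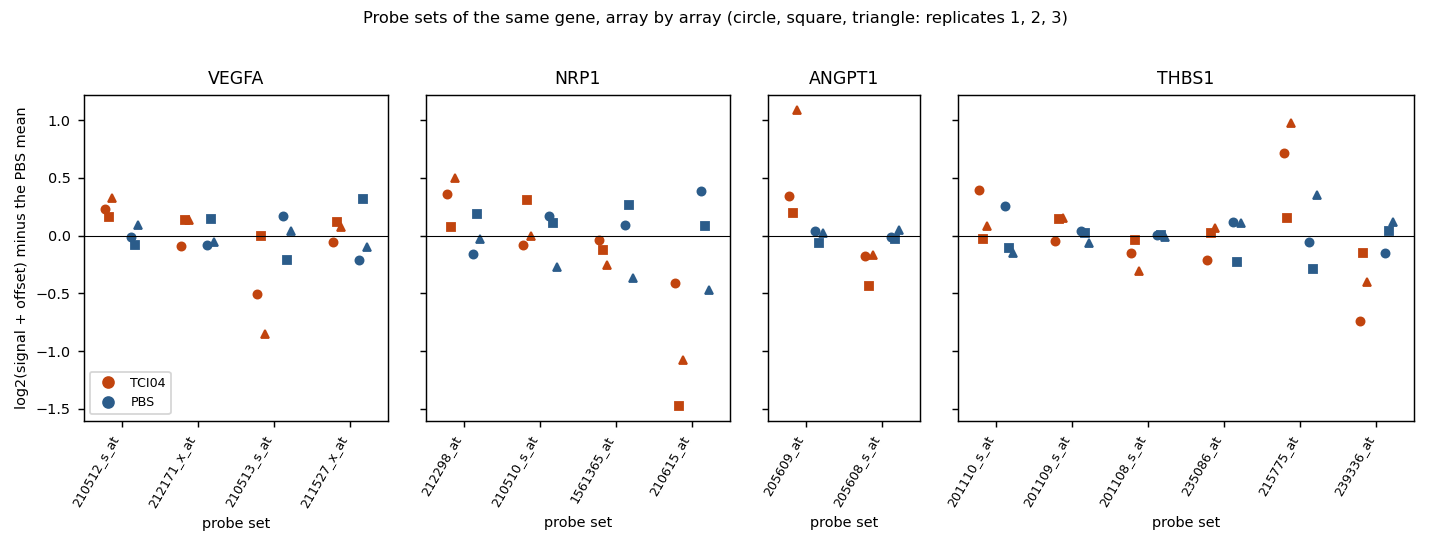
Log2(signal + offset) of each array minus the mean of the PBS arrays (vertical axis) for the tested probe sets of VEGFA, NRP1, ANGPT1 and THBS1 (horizontal axis), with TCI04 arrays in red and PBS arrays in blue. Probe sets of 1 gene differ in direction, as with VEGFA 210512_s_at and 210513_s_at (fold changes of 0.24 and -0.45) and ANGPT1 205609_at and 205608_s_at (0.54 and -0.26).

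THBS1, the secreted matrix protein thrombospondin 1, had 3 probe sets of high signal, of which 2 had higher and 1 lower means with TCI04. The differences between them were not tested. Probe set 201110_s_at measured 8126, 6042 and 6533 with TCI04, against 7398, 5735 and 5558 with PBS. Replicate 1 was the highest array in both groups, the groups overlapped, and the log2 fold change was 0.15 (limma, SE 0.12, adjusted p = 0.785). It was 0.024 without TCI04 replicate 1 and 0.28 without PBS replicate 1. Probe set 201109_s_at gave 4509.6 ± 342 with TCI04 and 4257 ± 172 with PBS, a log2 fold change of 0.081.

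In contrast, 201108_s_at was lower on every TCI04 array, at 1971, 2132 and 1771, than on any PBS array, at 2203, 2194 and 2179. The PBS arrays of this probe set varied by only 0.553% (coefficient of variation), and the TCI04 arrays by 9.24%. The log2 fold change of -0.17 (limma, SE 0.079, adjusted p = 0.697) was -0.096 without TCI04 replicate 3, which held the lowest value. Of the other 4 THBS1 probe sets, 3 were tested, with log2 fold changes of -0.43, -0.041 and 0.61, overlapping arrays and no call. The -0.43 came from the dim 239336_at, averaging 29.2 with TCI04 and 42.6 with PBS. The 0.61 came from the dim 215775_at, averaging 57.7 with TCI04 and 33.5 with PBS. The TCI04 mean of 239336_at and the PBS mean of 215775_at were under the filter level of 33.9. Each was therefore tested because of the signal of its other group. The mean over the 6 tested gave 0.034. That mean includes both, so its sign is no separate evidence on the direction of THBS1.

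PDGFC, a platelet-derived growth factor that acts on fibroblasts and pericytes, had the narrowest interval of any member. Probe set 218718_at measured 9997, 10092 and 11054 with TCI04, against 10464, 10801 and 10977 with PBS. TCI04 replicates 1 and 2 lay below the PBS arrays and replicate 3 above them. The log2 fold change was -0.051 (limma, SE 0.058, adjusted p = 0.837), with an interval from 0.883-fold to 1.06-fold. The other PDGFC probe set, 222719_s_at, had 2438 ± 208 with TCI04 and 2483 ± 64.6 with PBS, a log2 fold change of -0.029. Both turned positive, to 0.11 and 0.13, with arrays centred on their medians.

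FGF5, a fibroblast growth factor best known for ending the hair growth phase, was measured by 3 probe sets, all overlapping. Probe set 208378_x_at had 1563, 1519.9 and 1501 with TCI04, against 1145, 1543 and 1538 with PBS. PBS replicate 1 was the low array, and without it the log2 fold change of 0.13 became -0.012 (limma, adjusted p = 0.791 with all arrays). Probe set 210310_s_at was at 1345 ± 132 with TCI04 and 1344 ± 5.71 with PBS, a log2 fold change of -0.0033, and 210311_at gave -0.13.

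**Figure D4:**
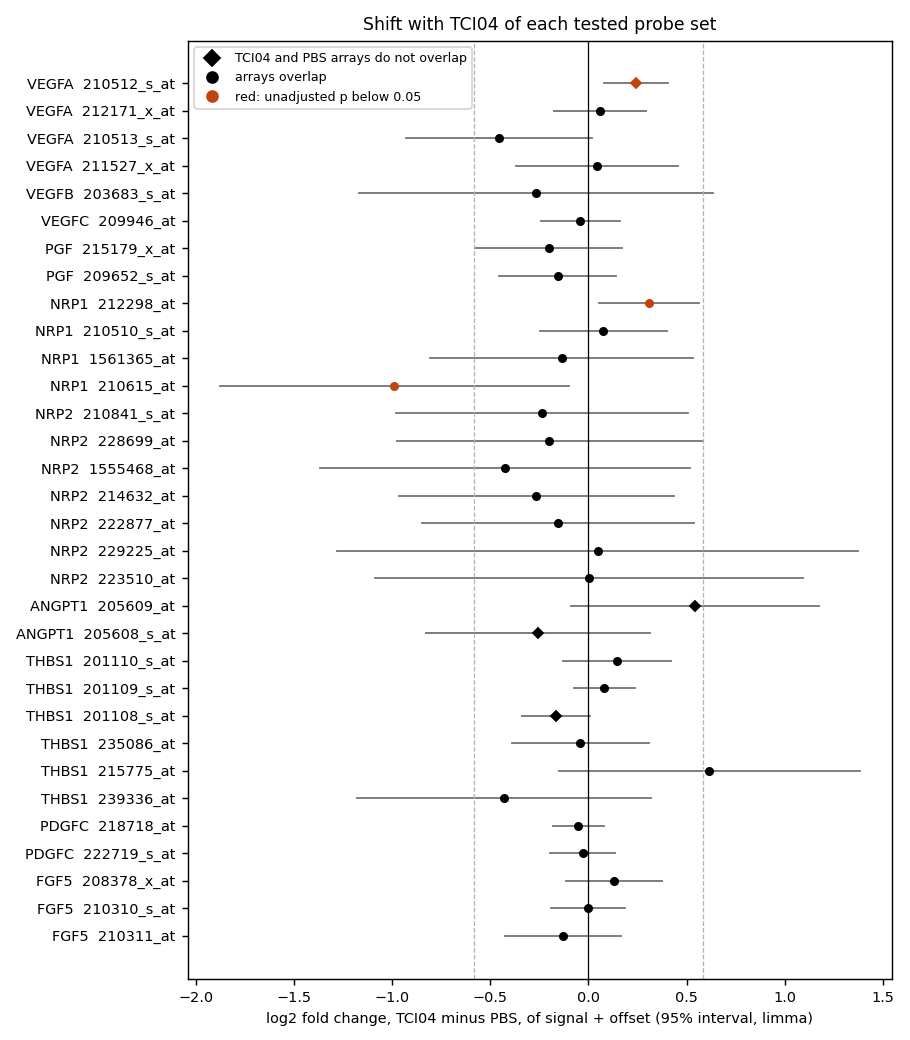
Log2 fold change (TCI04 minus PBS, horizontal axis) with 95% intervals for the 32 tested member probe sets, with diamonds where the arrays of the groups do not overlap, red where the unadjusted p is under 0.05, and dashed lines at 1.5-fold. For 17 of the 32 the whole interval lies between the dashed lines; only VEGFA 210512_s_at and 2 NRP1 probe sets have intervals that leave out 0.

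The precision differed between the genes. The whole 95% interval lay within 1.5-fold in either direction for 17 of the 32 member probe sets (53.1%), against 54.9% of all tested. These included every tested probe set of VEGFC, PGF, PDGFC and FGF5, 3 of 4 of VEGFA, 4 of 6 of THBS1 and 2 of 4 of NRP1. It included 0 of the probe sets of VEGFB, NRP2 and ANGPT1, whose signals were low. The median half-width of the interval was 0.39 (log2) for the members and 0.37 for all probe sets tested.

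The wider pathway held 43 other genes chosen by role, of which 41 had probe sets with 1 symbol (VEGFD and GIPC1 were not analysed here) and 28 had at least 1 probe set above the filter. Of their 57 tested probe sets, 0 were called higher and 0 lower, against 0% and 0.00305% of all probe sets tested; 21 had higher and 36 lower means, with a median log2 fold change of -0.058. Quantile normalization turned this to 33 higher and 24 lower (median 0.035), and median centring to 38 higher and 19 lower (median 0.10). The shares with higher means were 36.8% as reported, 57.9% and 66.7%, against 43.8%, 52.6% and 71.5% of all tested. At an unadjusted p under 0.05 there were 1 higher and 4 lower, 8.77% against 7.08% of all tested. Quantile normalization put 3 on each side (5.26%), against 3.06% higher and 3.18% lower of all tested. Median centring put 7 on the higher side (12.3%, against 14.0%) and 0 on the lower (against 1.30%). At the reported scaling all 5 had an adjusted p of 0.697 in limma.

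Among the receptors of these ligands, KDR, the main VEGFA receptor of endothelial cells, was near the filter, at 28.0, 41.3 and 25.1 with TCI04, against 55.1, 35.7 and 33.2 with PBS. FLT1, the receptor of VEGFA, VEGFB and PGF, had 129 ± 9.20 with TCI04 and 142 ± 47.8 with PBS in its brightest probe set, a log2 fold change of -0.079. The remaining 5 FLT1 probe sets were below the filter. All 3 probe sets of FLT4, the VEGFC receptor, were below the filter; the brightest, 210316_at, measured 22.3, 11.7 and 25.6 with TCI04, against 49.1, 40.6 and 71.2 with PBS. HIF1A, a transcription factor that induces VEGFA in low oxygen, measured 16598 ± 919 with TCI04 and 16851 ± 396 with PBS, a log2 fold change of -0.023 (limma, adjusted p = 0.931).

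The probe set of the wider list with the smallest p belonged to PLXNA2, a plexin that signals for semaphorins bound to neuropilins. It (227032_at) measured 370, 443 and 451 with TCI04, against 239.8, 309 and 361 with PBS, with no overlap, and a log2 fold change of 0.47 (limma, SE 0.16, adjusted p = 0.697). The other PLXNA2 probe sets gave -0.062 and -0.020. CD47, a receptor of thrombospondin 1, had a log2 fold change of -0.42 in its probe set 227259_at, and 0.060 in the brightest of its other 5 tested probe sets.

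FGFR1, a receptor of fibroblast growth factors, had 2 probe sets at -0.35 and -0.69, and its brightest gave -0.15. PDGFA, a platelet-derived growth factor, had 1 at -0.37 and its brightest at -0.098. ANGPTL4, an angiopoietin-like protein, was at 120, 96.1 and 89.6 with TCI04, against 50.3, 81.5 and 68.5 with PBS, with a log2 fold change of 0.55 (limma, adjusted p = 0.697).

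**Figure D5:**
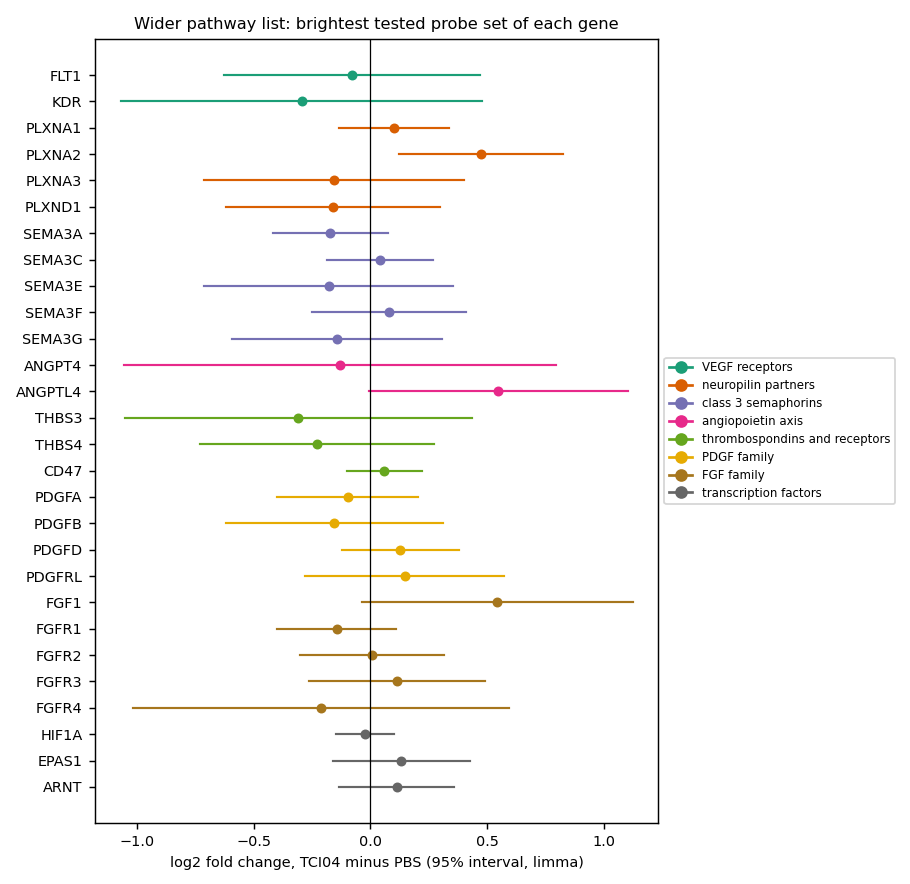
Log2 fold change (TCI04 minus PBS, horizontal axis) with 95% intervals for the brightest tested probe set of each of 28 genes of the wider pathway, coloured by role. The interval of PLXNA2 (0.12 to 0.83) leaves out 0, and those of the other genes shown include it. KDR was tested because of its PBS signal.

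The endothelial markers, the genes of the cells on which these ligands act, were read for the same arrays. Of 10 measured, each by its brightest probe set, 4 were above the filter (PECAM1, KDR, ESAM and ROBO4). The summed signal of all 10 was 959.8 to 998 with TCI04 and 1124 to 1232 with PBS, so the groups did not overlap. ROBO4 made up much of the gap, at 287 to 310.1 with TCI04 and 415 to 478 with PBS. PECAM1 measured 141 to 172 with TCI04 and 184 to 191 with PBS, without overlap, and ESAM 382 to 397 with TCI04 and 346 to 506 with PBS. Of all probe sets tested, 8.19% were lower on every TCI04 array than on any PBS array. The median signal of the arrays was also lower, at 58.9 to 59.8 with TCI04 and 64.0 to 74.3 with PBS. CDH5, VWF, TEK, CLDN5, ERG and EMCN were below the filter in these cultures. With TCI04 and PBS in turn, CDH5 measured 4.04 to 17.7 and 4.34 to 25.9, and VWF 10.9 to 33.6 and 24.7 to 62.3. CLDN5 was at 3.38 to 8.64 and 4.36 to 9.57, and EMCN at 1.02 to 27.0 and 2.87 to 17.1. The highest signals of ERG (25.1 to 47.1 and 7.05 to 25.5) and TEK (8.15 to 17.4 and 0.809 to 9.16) were with TCI04. The endothelial markers therefore did not all point the same way. All 8 fibroblast markers, 2 of them above the filter, summed to 551 to 767 with TCI04 and 636 to 706 with PBS, and the 6 measured leukocyte markers, 1 above the filter, to 83.6 to 189 with TCI04 and 147 to 286 with PBS. The labels name MDA-MB-231 alone, so these values are signals of a single line in culture and not counts of cells of other types. What lies behind them, and their part in the member values, was not tested.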

How the data were processed

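The authors deposited linear intensity values for 54675 probe sets on 6 arrays; the submitters' processing notes name MAS5, which the authors ran per array. Not given in the sources used here are the MAS5 version and its present or absent calls. In the platform annotation 41097 probe sets had 1 gene symbol, of which 41043 matched RefSeq by Entrez ID with 0 symbols changed. Since the array's genome build is not named, coordinates are left out.

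The scale was log2(signal + 10.96), where the added value is the 20th percentile of the table, so fold changes understate those of dim probe sets. The 62 control probe sets and probe sets with a mean log2 value under the 40th percentile were left out, leaving 32746. TCI04 minus PBS was tested two-sided by limma 3.58.1 (R 4.3.3; lmFit, then eBayes with trend), with Benjamini-Hochberg adjustment over all 32746 and a threshold of 0.05. Intervals are 95%, at 10.5 moderated degrees of freedom. The steps were tested on simulated data.

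The members and lists were chosen with earlier results of these data known. Given array by array were the brightest probe set of each gene and certain other tested members. These had an unadjusted p under 0.05 in limma or an absolute log2 fold change of at least 1. Probe sets 205608_s_at, 210513_s_at, 210510_s_at and 201108_s_at were added after their values were seen. Of the wider list, KDR, FLT1, FLT4, HIF1A and the 6 smallest p were named. The marker lists are given by their sums, with all endothelial markers and the genes listed as low in the line by name. The values of ESR1 and of the endothelial markers other than KDR were added after they were seen. Same-numbered arrays of the groups deviated together weakly at most (correlations of 0.0036, 0.062 and 0.050, against -0.061 to 0.0092 for differently numbered arrays). The labels state no pairing, and none was used in the main fit. Alternatives covered scaling, offset, filter, variance model, array weights, the replicate block, probe set choice and each array left out. The number of arrays limited the precision.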

Additional observations from a re-analysis of the deposited data

How the results depend on the processing

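In 19 alternatives, 1 of them (centring on the median of the tested probe sets) added after seeing the data, no member probe set passed the adjusted threshold. Of the 32 tested, 14 kept their sign in every alternative that tested them and 18 did not. Over all probe sets, the 1 call went to 0 with median centring and eBayes without trend. It lay between 0 and 1 when each array was left out. The count at an unadjusted p under 0.05 was 2320 as reported and 5019 with median centring, both of 32746 tested. Without a filter it was 3631, but of 54613 tested. Members at an unadjusted p under 0.05 were 2 higher and 1 lower as reported. Quantile normalization gave 4 higher (12.5%, against 3.06% of all tested). Median centring gave 6 higher and 0 lower (18.8% higher, against 14.0%). With eBayes without trend, 1 was higher and 2 lower (2212 of 32746 over all probe sets). Without probe sets ending in _x_at or _s_at, 1 of 16 members was higher. The 60th percentile filter gave 0 lower among 18 members (1597 of 21823 over all). The lower NRP1 probe set was not among the 18. Array weights gave 0 lower among 32 (2709 of 32746 over all). With single arrays left out, 1 to 4 were higher and 0 to 2 lower among 29 to 32 members (1893 to 2740 over all). These totals over all probe sets cover both directions, and their split is not given here. The wider list's 5 (1 higher, 4 lower) were 3 higher and 3 lower with quantile normalization. With median centring they were 7 higher (12.3%, against 14.0% of all tested). The count was 10 of 122 tested without a filter, against 5 of 57 as reported. It was 3 of 57 with array weights. It was 1 to 6 when each array was left out, where the share over all probe sets is not given here. The members' median log2 fold change, -0.047, was 0.11 with median centring, 0.014 with centring on the tested probe sets, and -0.097 to -0.018 when each array was left out. The replicate block used numbers that the labels do not say pair the arrays. It gave 3 higher and 1 lower members at an unadjusted p under 0.05 (2866 over all probe sets) and changed no call. The causes of these moves were not tested.

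These log2 fold changes changed sign. With quantile normalization, NRP1 1561365_at gave 0.036, NRP2 222877_at 0.022 and THBS1 235086_at 0.022. With median centring, NRP1 1561365_at gave 0.024, PGF 209652_s_at 0.0029, VEGFC 0.12, FGF5 210310_s_at 0.16 and 210311_at 0.031, PDGFC 0.11 and 0.13, NRP2 222877_at 0.0035 and THBS1 235086_at 0.12. With centring on the tested probe sets, VEGFC gave 0.018, FGF5 210310_s_at 0.057, PDGFC 0.0091 and 0.031, and THBS1 235086_at 0.020. With the offset at the table median, NRP2 223510_at gave -0.039 and 229225_at -0.022. With array weights, FGF5 210310_s_at gave 0.0036, VEGFA 211527_x_at -0.023, NRP2 223510_at -0.19 and 229225_at -0.34. When each gene's probe sets were averaged, VEGFA gave -0.028, NRP1 -0.18 and FGF5 -0.00083. With single arrays left out, the ranges that crossed 0 were -0.063 to 0.20 for VEGFA 211527_x_at, -0.55 to 0.21 for VEGFB, -0.10 to 0.0067 for VEGFC, -0.36 to 0.015 for PGF 215179_x_at, -0.061 to 0.16 for NRP1 210510_s_at, -0.154 to 0.044 for THBS1 235086_at, -0.098 to 0.014 for PDGFC 222719_s_at, and -0.012 to 0.20 and -0.080 to 0.051 for FGF5 208378_x_at and 210310_s_at. For NRP2 they were -0.72 to 0.034 (1555468_at), -0.52 to 0.24 (223510_at), -0.50 to 0.065 (228699_at) and -0.60 to 0.48 (229225_at, tested in 2 such fits).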
